A study of Mus musculus with 8 samples.

Results

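The interleukin-1 (IL-1) cytokines and the inflammasome were examined as 10 genes, chosen by name: the cytokines Il1a, Il1b and Il18, the receptor antagonist Il1rn, the receptor accessory chain Il1rap, the sensor Nlrp3, the adaptor Pycard, the proteases Casp1 and Casp4, and the pore former Gsdmd. All 10 were found among the 55487 genes of the table. RNA had been sequenced from a mouse macrophage line labelled J774A.1, in 4 libraries of cells given lipopolysaccharide (LPS, the endotoxin of Gram-negative bacteria) for 24 h and 4 libraries of cells given LPS together with ursodeoxycholic acid (UDCA, a secondary bile acid) for 24 h. By the study's methods, LPS was used at 1 μg/mL and UDCA at 1 mM. Every library came from cells with LPS, so the comparison asks how UDCA shifted expression under LPS, and cells never given LPS were not analysed here. Throughout, 4 values in a row follow the replicate numbers 1 to 4 of the labels. The labels name libraries and not separate cultures, so the p-values measure the spread between these libraries, which may be technical.

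IL-1α and IL-1β are cytokines that bind the same receptor and drive fever and leukocyte recruitment, and the receptor antagonist occupies that receptor without signaling. IL-1β and IL-18 are made as inactive precursors. In the inflammasome, a sensor such as NLRP3 joins the adaptor ASC (the product of Pycard) and caspase-1, which then cleaves both precursors and gasdermin D, whose freed part forms pores in the cell membrane. The mouse gene Casp4 encodes caspase-11, which binds LPS inside the cell and also cleaves gasdermin D. In macrophages, LPS raises the transcripts of several of these genes before any protein is cleaved, and the transcript levels given here do not show cleavage or release.

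Values are TPM (length-scaled transcript abundance), a unit that corrects reads for transcript length and library size, so that genes of different length can be compared within a library. The columns summed to between 973190 and 977485 TPM with LPS and to between 958918 and 962737 TPM with LPS + UDCA. TPM keeps no read number, so the depth behind each value is unknown and the errors are the spread between replicates. Of 10 macrophage markers, 9 were present in all 8 libraries and Mertk was listed at 0 in each. All 9 differed between the groups at an FDR under 0.05 at any fold, as 72.5% of all genes did, 4 of them higher and 5 lower with UDCA. From LPS to LPS + UDCA, mean TPM went from 1988 to 436 for Lyz2, from 542 to 206 for Cd68, from 176 to 22.7 for Itgam and from 112 to 43.2 for Csf1r, while Adgre1 was 2.45-fold and Fcgr1 2.84-fold higher. The summed level of the 10, to which Lyz2 gave the most with LPS, was 4240 to 4472 TPM with LPS and 2081 to 2338 TPM with LPS + UDCA. Their part in the results below was not tested. Of 16 markers of other cell types, none exceeded 0.95 TPM in any library and 9 were at 0 throughout. The defining epithelial marker Epcam, T cell marker Cd3e and neutrophil marker Ly6g were among those at 0. The Y-linked genes Eif2s3y (14.9 to 27.8 TPM), Ddx3y (2.75 to 11.25 TPM), Kdm5d (1.29 to 4.35 TPM) and Uty (1.22 to 3.72 TPM), looked at after their values were seen, were present in all 8 libraries, and Xist was at most 0.02 TPM. J774A.1 is known as a line from a female mouse, so these values go against the label. Each of these Y-linked genes was also higher in every LPS + UDCA library than in any LPS library, as were 37% of all genes tested. With LPS and with LPS + UDCA in turn, Eif2s3y was at 14.9 to 19.6 and 22.75 to 27.8 TPM. Ddx3y was at 2.75 to 3.86 and 8.8 to 11.25 TPM, Kdm5d at 1.29 to 1.72 and 3.76 to 4.35 TPM, and Uty at 1.22 to 1.76 and 3.16 to 3.72 TPM. The identity of the line was not tested, and the cells are called here by their label.

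**Figure D1:**
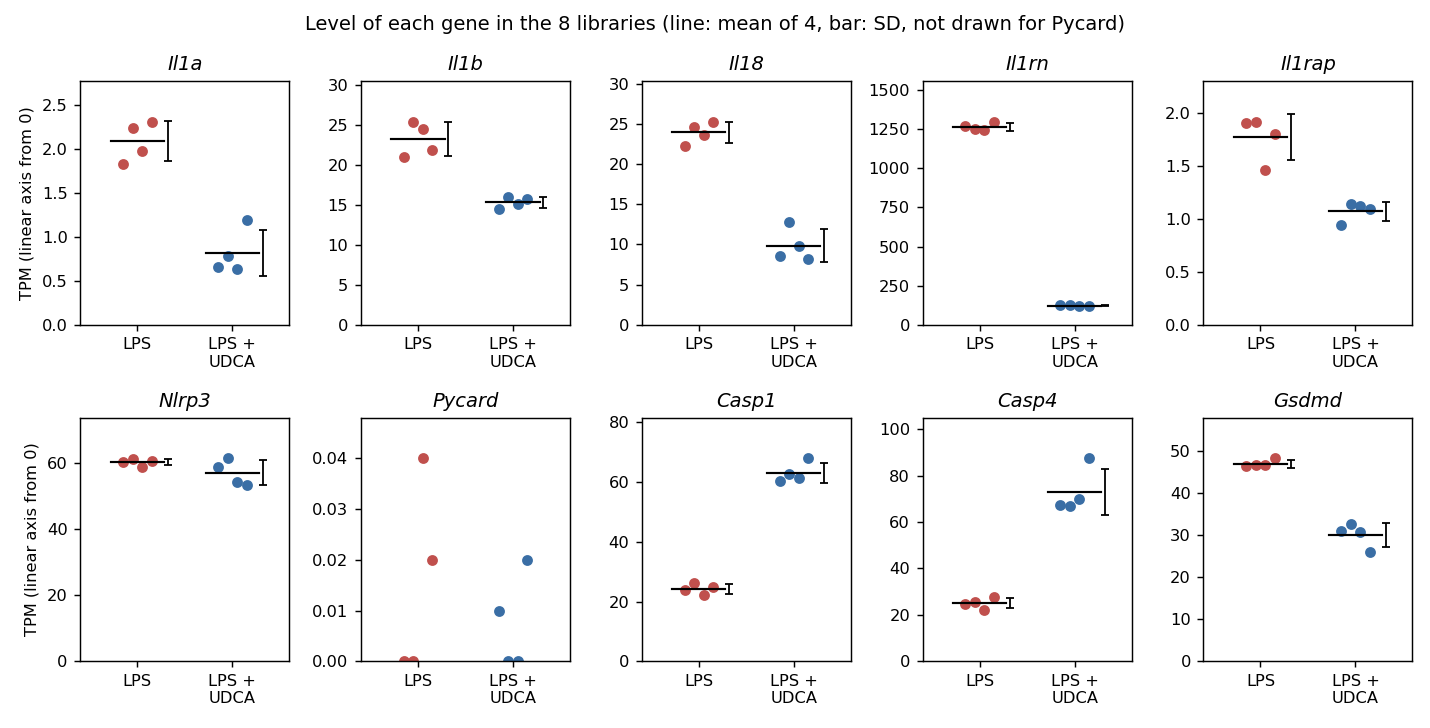
Level of the 10 genes in each library, in TPM on linear axes that start at 0, with LPS libraries in red and LPS + UDCA libraries in blue, a line at the mean of 4 and a bar of 1 SD (no line or bar for Pycard). The groups stood apart in 8 genes, overlapped in Nlrp3, and Pycard was at most 0.04 TPM in all 8 libraries.

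In LPS-treated cells, UDCA lowered the transcript of the IL-1 receptor antagonist about 10-fold, lowered the cytokine transcripts Il18, Il1a and Il1b by smaller factors, and raised Casp1 and Casp4. The groups were compared on log2(TPM + 1) with limma, which fits each gene and steadies its variance with that of the rest, and p-values were adjusted by Benjamini-Hochberg over all 11796 genes whose mean reached 1 TPM. The log2 changes below are on that scale, with UDCA minus LPS and SE for the standard error. Pycard, with a mean under 1 TPM, was left out, so 9 of the 10 genes were tested. Of these, Il1a had a mean below 1 TPM with UDCA and entered only through the LPS libraries. Il1a is part of the counts at any fold, of the lack of overlap and of the median below. The study's thresholds, a minimum fold change of 2 with an adjusted p (FDR) under 0.05, were applied here to TPM + 1 in limma. The study's own calls came from a different analysis, so its numbers of called genes are not those given here. At these thresholds, 2 of the 9 were higher and 2 were lower, where 17.1% of all genes tested were called (8.71% higher and 8.44% lower). At that FDR with any fold, 6 of the 9 were lower and 2 higher, where 72.5% of all genes were called (32.3% lower and 40.2% higher), so a passing test without a fold minimum was usual in this comparison. No overlap between groups was seen for 8 of the 9, 6 of them lower and 2 higher with UDCA, where 66.8% of all genes showed no overlap (29.9% lower and 37% higher). The median log2 fold change of the 9 genes was -0.56, against 0.082 over all genes tested. In bulk RNA, fewer cells that express a gene and less RNA per cell cannot be told apart.

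**Figure D2:**
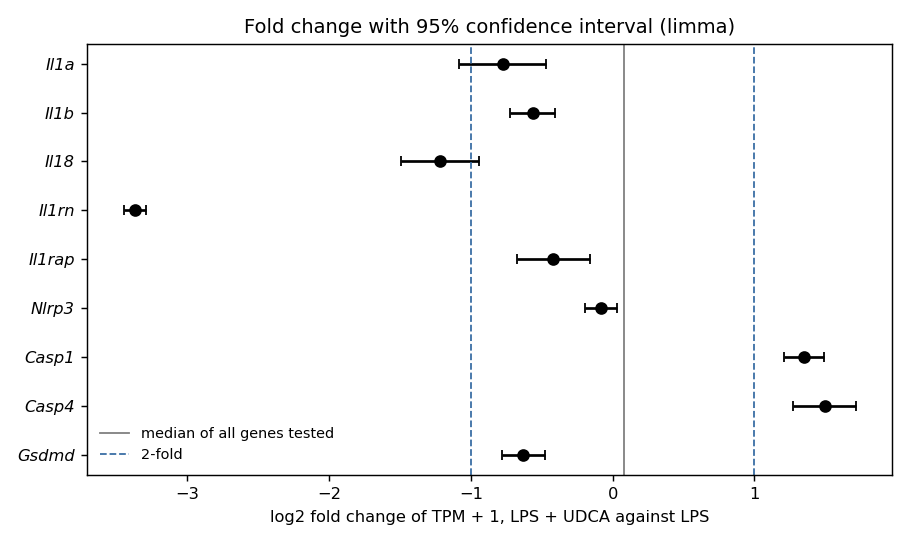
Log2 fold change of TPM + 1 for the 9 tested genes, with 95% confidence intervals from limma, a grey line at the median of all genes tested (0.082) and dashed lines at 2-fold. Il1rn lies at -3.37, Casp1 and Casp4 lie above 1, and the interval of Nlrp3 spans 0.

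Among the cytokines, Il1b was the more abundant of the IL-1 receptor agonists. Il1b (ENSMUSG00000027398), which encodes IL-1β, lies on chromosome 2 from 129364570 to 129371139 of GRCm38, on the minus strand. It was at 20.95, 25.4, 24.5 and 21.9 TPM in the LPS libraries, and 14.4, 16.0, 15.1 and 15.7 TPM once UDCA was added. All 4 UDCA libraries lay below all 4 LPS libraries, with an SD of 2.10 TPM under LPS and 0.710 TPM with UDCA. The mean with UDCA was 33.9% lower (log2 change -0.56, SE 0.071, limma adjusted p = 7.5e-05). On the other strand Il1bos, an antisense gene that overlaps 1243 bases of Il1b, was at most 0.38 TPM, and the use of strand in counting is not given in the sources used here. The study's RT-qPCR assay of mouse Il1b reads the same transcript with the primers below, shown because they mark the stretch that this assay follows. The study also measured IL-1β as protein by ELISA. The primers are from its supplementary table, and the same pair is listed there for pig. Both lie in exon 4 of the 7 exons of Il1b in GENCODE M21, the forward at chr2:129368081-129368102 and the reverse at chr2:129368002-129368023, and bound a product of 101 bases.
Il1b forward: ctcgcagcagcacatcaacaag
Il1b reverse: ggaaggtccacgggaaagacac

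Il1a (ENSMUSG00000027399), which encodes IL-1α and lies 54597 bases from Il1b on the same strand (chromosome 2, 129299610 to 129309972), was near the lower limit of what was tested. It had 1.83, 2.24, 1.98 and 2.31 TPM in the LPS libraries, and 0.66, 0.78, 0.63 and 1.19 TPM once UDCA was added. No UDCA library reached an LPS library. Its mean TPM fell 2.56-fold, whereas on the log2(TPM + 1) scale, which understates the change of low genes, the log2 fold change was -0.78 (SE 0.14, limma adjusted p = 6.5e-04). With a pseudocount of 0.1 it was -1.29, past the 2-fold minimum. Its mean was below 1 TPM with UDCA, so it entered the test through the LPS libraries. Of its 31-base words, 10.03% also occur in the overlapping antisense transcript Gm14023 or other genes.

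Il18 (ENSMUSG00000039217), on chromosome 9 from 50554827 to 50581840, encodes an interferon-γ-inducing cytokine of the IL-1 family that is cleaved by caspase-1. Its level was 22.25, 24.6, 23.6 and 25.3 TPM in the LPS libraries, and 8.58, 12.8, 9.81 and 8.19 TPM once UDCA was added. With LPS its level was close to that of Il1b, and with UDCA every library was below 13 TPM. The log2 fold change was -1.22 (SE 0.12, limma adjusted p = 1.6e-05), and it passed both thresholds.

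Il1rn was the most abundant of the 10 genes and changed most. Il1rn (ENSMUSG00000026981), which encodes the IL-1 receptor antagonist, lies on chromosome 2 from 24336853 to 24351494 of GRCm38. It was at 1269, 1250, 1244 and 1299 TPM in the LPS libraries, and 127, 124, 119 and 117 TPM once UDCA was added. The lowest LPS library was thus far above the highest UDCA library. The mean was 1266 ± 25.0 TPM (SD, n = 4) under LPS alone and 122 ± 4.85 TPM with UDCA added, 10.4-fold lower (log2 change -3.37, SE 0.035, limma adjusted p = 2.8e-11). Among the 11796 genes it ranked 138 by mean level with LPS and 984 with LPS + UDCA, and its log2 fold change was the 19th lowest. Over 16 alternatives of scaling, filter, pseudocount, model and left-out libraries the log2 fold change ran from -3.48 to -3.29. The antagonist has RefSeq start sites at several positions, used for secreted and intracellular forms, and the table gives 1 value per gene, so the forms were not separated.

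The 250 bases before the first start site of Il1rn and before that of Il1b, the antagonist and the main agonist, are shown for reference. Whether these sequences bear on the unequal falls was not tested. RefSeq promoters (GRCm38.p6) were matched for 9 of the 10 genes. Searched on both strands were GGG and CC with any 5 bases between them for NF-κB, TGANTCA for AP-1, GAGGAA for PU.1, GAAA repeated after any 2 bases for IRF factors and TTCNNNGAA for STAT factors, with matches in capitals. The first Il1rn window, chr2:24336610-24336859 on the plus strand, held 1 match to the NF-κB letters, found in 45.8% of 32851 promoter windows, and 1 to the AP-1 letters, found in 6.75%. Of the later Il1rn windows, not shown, chr2:24345041-24345290 held no match and chr2:24345121-24345370 held 1 to the NF-κB letters and 0 to the AP-1 letters. Which start sites were used in these cells was not tested. The Il1b window, chr2:129371140-129371389 on the minus strand, held no match to any of the 5. A match describes letters and is not a shown binding site.
Il1rn: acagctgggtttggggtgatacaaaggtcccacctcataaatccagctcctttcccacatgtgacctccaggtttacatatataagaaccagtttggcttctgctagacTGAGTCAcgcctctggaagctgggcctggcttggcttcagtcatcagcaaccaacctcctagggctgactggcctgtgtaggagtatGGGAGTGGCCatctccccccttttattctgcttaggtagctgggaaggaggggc
Il1b: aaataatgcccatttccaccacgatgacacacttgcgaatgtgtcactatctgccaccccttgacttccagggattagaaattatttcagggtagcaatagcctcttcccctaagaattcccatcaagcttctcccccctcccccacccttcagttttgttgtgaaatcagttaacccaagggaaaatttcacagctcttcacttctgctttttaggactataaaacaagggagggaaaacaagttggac

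The cytokine transcripts were set against the antagonist within each library, as ratios of TPM. Because the 10 genes were chosen with earlier results known, these ratios are given without a test. Il1rn exceeded Il1b by 60.6, 49.2, 50.8 and 59.4 times in LPS replicates 1 to 4 and by 8.85, 7.73, 7.86 and 7.44 times in LPS + UDCA replicates 1 to 4. The mean ratio was 55.0 ± 5.82 (SD, n = 4) with LPS alone and 7.97 ± 0.612 with UDCA, a 6.90-fold difference with no overlap. Both transcripts fell, and the antagonist fell further. Against Il1a, the mean ratio of Il1rn went from 611 ± 64.0 to 160 ± 43.8, from groups that did not overlap. As a share of the summed TPM of Il1a, Il1b and Il1rn, a measure added after the values were seen, the agonists Il1a and Il1b made up 1.76% to 2.16% with LPS and 10.6% to 12.6% with LPS + UDCA. Per TPM of Il1b there was 0.0905 ± 0.0106 TPM of Il1a with LPS and 0.0530 ± 0.0155 TPM with UDCA, without overlap. Il18bp, which encodes the soluble inhibitor of IL-18, was at 0.14 to 0.72 TPM in the 8 libraries, and the ratio of Il18 to Il18bp overlapped between the groups (30.9 to 139 with LPS, 26.0 to 58.5 with LPS + UDCA).

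**Figure D3:**
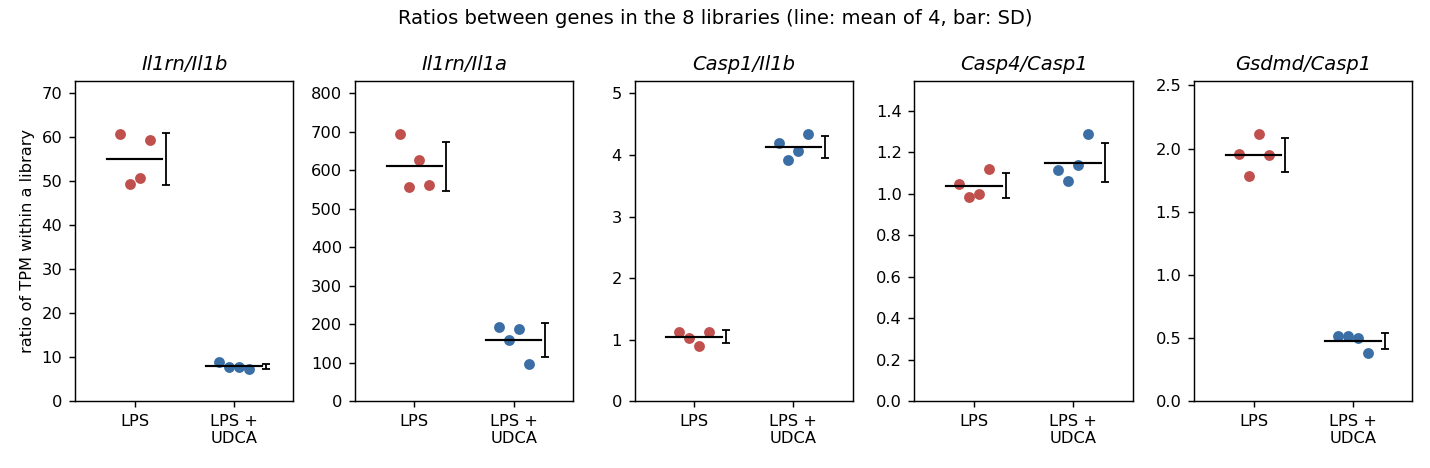
Ratios of TPM between pairs of genes in each library, on linear axes from 0, with a line at the mean of 4 and a bar of 1 SD. Il1rn over Il1b was at least 49.2 with LPS and at most 8.85 with LPS + UDCA, Casp1 over Il1b was higher in every UDCA library, and Casp4 over Casp1 overlapped between the groups.

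The chains of the IL-1 receptor itself, Il1rap and Il1r1, were low. Il1rap (ENSMUSG00000022514), on chromosome 16 from 26581704 to 26730117, encodes the accessory chain that the receptors of IL-1, IL-33 and IL-36 share. It was at 1.91, 1.92, 1.46 and 1.80 TPM in the LPS libraries, and 0.94, 1.14, 1.12 and 1.09 TPM once UDCA was added. Every UDCA library was lower (log2 change -0.42, SE 0.11, limma adjusted p = 0.0084, and 0.034 with the replicate block), by 39.5% of the mean TPM. Il1r1, which encodes the receptor chain that binds IL-1, was at 0.03 to 0.13 TPM with LPS and at 0.27 to 0.47 TPM with LPS + UDCA. The groups did not overlap, and although Il1r1 was below the 1 TPM minimum, it was higher with UDCA in the fit of all genes above 0 TPM (log2 change 0.31, limma adjusted p = 0.0027).

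The remaining IL-1 family genes were mostly low. Of 16 other genes for ligands, antagonists and receptors of the family, 5 were listed at 0 in every library and 4 had a mean of at least 1 TPM. Of those 4, 3 were lower with UDCA at an FDR under 0.05 from limma and none was higher. Over all genes tested, 32.3% were lower and 40.2% higher at that FDR. Il18rap, the accessory chain of the IL-18 receptor, was at 16.0 ± 0.896 TPM (SD, n = 4) under LPS and 5.05 ± 0.957 TPM after UDCA (3.17-fold lower, limma adjusted p = 3.4e-06), while its partner chain Il18r1 was at most 0.04 TPM in any library. Il1rl1, the IL-33 receptor chain ST2, had a log2 change of -0.84 (limma adjusted p = 1.0e-04). Sigirr, an inhibitory member of the receptor family, fell from 11.3 ± 0.413 to 7.33 ± 0.654 TPM (log2 change -0.56, limma adjusted p = 9.4e-05). Il1f9, which encodes the cytokine IL-36γ, had a mean of 1.23 TPM and 0.850 TPM, and the groups overlapped (limma adjusted p = 0.12).

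The inflammasome sensor Nlrp3 was at a similar level in both groups. Nlrp3 (ENSMUSG00000032691), on chromosome 11 from 59541568 to 59566956, was at 60.5, 61.3, 59.1 and 60.8 TPM in the LPS libraries, and 59.0, 61.6, 54.5 and 53.5 TPM once UDCA was added. The groups overlapped, since LPS + UDCA replicate 2 was above every LPS library. The log2 fold change was -0.081, with a 95% confidence interval from -0.19 to 0.033 (limma adjusted p = 0.17). The call depended on the scaling, because with median-of-ratios scaling, which shifted the median of all genes from 0.082 to -0.018, the log2 fold change was -0.19 (limma adjusted p = 0.008), and without LPS + UDCA replicate 2 it was -0.12 (limma adjusted p = 0.047).

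Pycard (ENSMUSG00000030793), on chromosome 7 from 127989708 to 127993867, encodes the adaptor ASC and was near 0 in every library. It was listed at 0, 0, 0.04 and 0.02 TPM in the LPS libraries, and 0.01, 0, 0 and 0.02 TPM once UDCA was added. An entry of 0 in a table without counts can be a failed estimate, which was not tested. Entries above 0 were given for LPS replicates 3 and 4 and for LPS + UDCA replicates 1 and 4. Of the 31-base words of Pycard, 12.7% also occur in another gene, mostly in Gm45205, which was itself at most 0.02 TPM. No difference could be assessed at this level. As background, J774A.1 cells are commonly used as macrophages that have ASC. Pycard near 0 thus goes against the label, as the Y-linked genes above do, and the identity of the line was not tested.

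Casp1 and Casp4, which are neighbors on chromosome 9, rose together. Casp1 (ENSMUSG00000025888), from 5298517 to 5307265, encodes caspase-1 and was at 23.8, 26.2, 22.1 and 24.8 TPM in the LPS libraries, and 60.4, 62.8, 61.5 and 68.0 TPM once UDCA was added. Each UDCA library was more than 2-fold above each LPS library, and the mean was 2.61-fold higher (log2 change 1.35, SE 0.061, limma adjusted p = 1.2e-07). Casp4 (ENSMUSG00000033538) begins 1562 bases beyond the end of Casp1 on the same strand and runs from 5308828 to 5336783. It was at 24.9, 25.8, 22.1 and 27.7 TPM in the LPS libraries, and 67.2, 66.8, 69.96 and 87.4 TPM once UDCA was added. Again no library overlapped, and the mean was 2.90-fold higher (log2 change 1.49, SE 0.097, limma adjusted p = 1.0e-06). The ratio of Casp4 to Casp1 was 1.04 ± 0.0604 with LPS and 1.15 ± 0.0956 with LPS + UDCA (SD, n = 4), and the groups overlapped. The highest ratio was 1.29, in LPS + UDCA replicate 4. Casp12, the next gene of the cluster, from 5345430 to 5373032, was listed at 0 in all 8 libraries. No 31-base word of Casp1 occurs in another gene, and 1.98% of those of Casp4 do.

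The promoter windows of the neighbors that rose together are shown for comparison, with the same 5 motifs in capitals. The Casp1 window, chr9:5298267-5298516 on the plus strand, held 1 match to the NF-κB letters and 1 to GAGGAA, the latter found in 23.3% of all windows. The Casp4 window, chr9:5308599-5308848 on the plus strand, held 5 matches to the NF-κB letters, of which 3 overlap in 1 run that begins 93 bases before the RefSeq start. This start lies beyond the GENCODE start of Casp4 given above (5308828), and so does the last of the 5 matches. A later Casp4 window, chr9:5308610-5308859, held the same 5 matches and is not shown. Neither the Casp1 window nor the Casp4 windows held a match to the AP-1, IRF or STAT letters, of which the last pair occur in 2.98% and 7.02% of all windows.
Casp1: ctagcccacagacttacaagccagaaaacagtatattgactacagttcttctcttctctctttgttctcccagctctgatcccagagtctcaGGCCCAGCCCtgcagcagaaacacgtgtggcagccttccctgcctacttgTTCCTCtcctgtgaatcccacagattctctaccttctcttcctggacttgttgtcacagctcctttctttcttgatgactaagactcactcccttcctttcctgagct
Casp4: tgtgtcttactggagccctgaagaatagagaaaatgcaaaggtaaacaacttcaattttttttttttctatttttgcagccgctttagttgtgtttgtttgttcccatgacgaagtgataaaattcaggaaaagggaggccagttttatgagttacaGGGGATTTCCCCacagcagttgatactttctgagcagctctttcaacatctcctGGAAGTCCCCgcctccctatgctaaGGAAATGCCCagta

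Gsdmd (ENSMUSG00000022575), on chromosome 15 from 75862327 to 75867408, encodes gasdermin D, the substrate of both caspases, and moved opposite to them. It was at 46.5, 46.7, 46.65 and 48.35 TPM in the LPS libraries, and 31.1, 32.6, 30.7 and 26.1 TPM once UDCA was added. All UDCA libraries were lower, by 35.9% of the mean (log2 change -0.63, SE 0.066, limma adjusted p = 2.3e-05). The opposite shifts of the Casp1 and Gsdmd transcripts changed their ratio within a library. Gsdmd exceeded Casp1 with LPS (ratio 1.95 ± 0.135, SD, n = 4) and was below it with LPS + UDCA (0.480 ± 0.0642). Casp1 and Il1b were near parity with LPS, with 0.902 to 1.13 TPM of Casp1 per TPM of Il1b, and Casp1 was 3.92 to 4.33 times Il1b with LPS + UDCA.

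In an exact permutation test of the mean TPM of each single gene (2-sided, over the 70 arrangements of 8 libraries), 8 of the 10 genes reached p = 0.029, the lowest value possible with 4 against 4 libraries, while Nlrp3 had p = 0.23 and Pycard p = 0.71. These p-values are not adjusted, and the genes were chosen with earlier results known. Any gene whose groups do not overlap gets the lowest value, as is so for 66.8% of all genes tested. The test thus restates the lack of overlap given above.

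The other inflammasome sensors and their partners moved both ways. Of 27 listed genes, 26 were in the table and 16 were tested, of which 7 were higher and 5 lower at an FDR under 0.05 from limma, and 1 in each direction also passed the 2-fold minimum. Over all genes tested, 40.2% were higher and 32.3% lower at that FDR, and 8.71% higher and 8.44% lower past both thresholds. The median log2 fold change of the list was 0.070, close to that of all genes. The gene that passed both thresholds upward was Gbp3, of the guanylate-binding proteins that coat bacteria and their LPS, at 1.15 ± 0.304 TPM (SD, n = 4) under LPS alone and 3.63 ± 0.539 TPM under both agents (log2 change 1.11, limma adjusted p = 6.6e-05). In the other direction was Zbp1, a sensor of Z-form nucleic acids, at 6.67 ± 1.59 and 2.80 ± 1.26 TPM (log2 change -1.04, limma adjusted p = 0.0023). Of the 31-base words of Gbp3, 5.64% also occur in another gene, mostly in Gbp7.

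**Figure D4:**
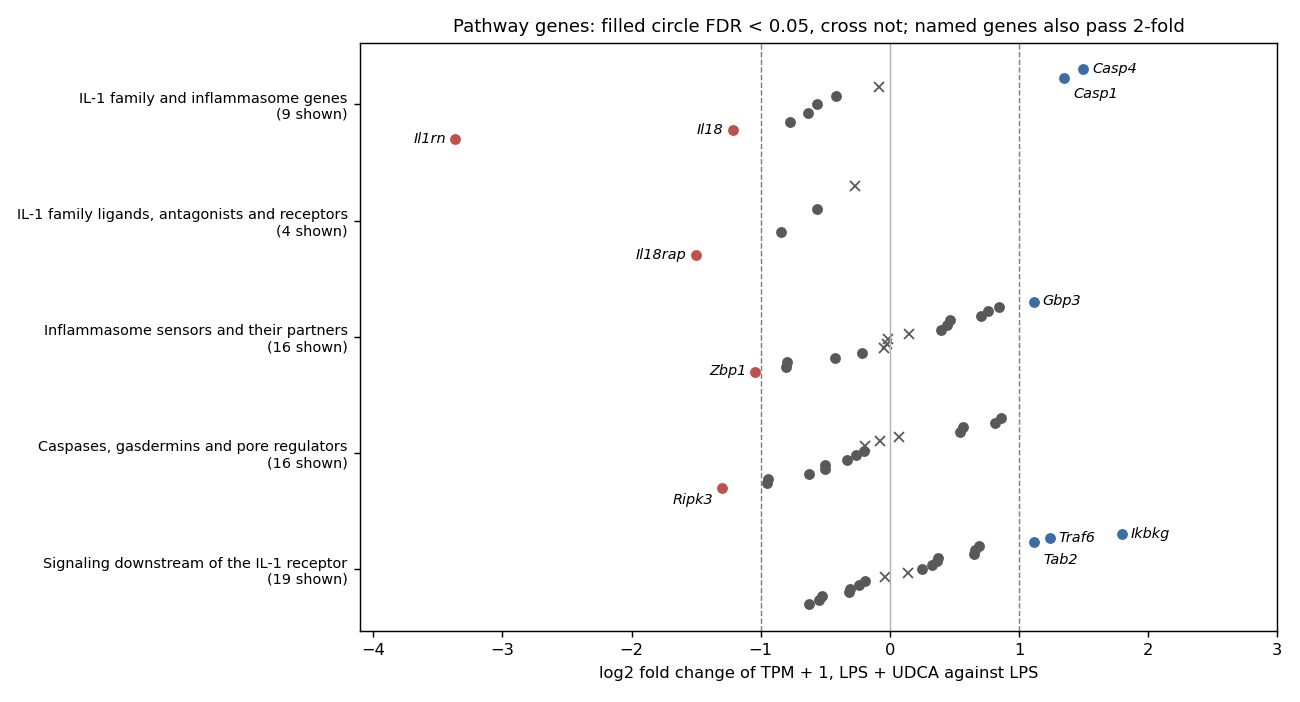
Log2 fold change of TPM + 1 of tested genes in the 10-gene set and 4 further lists (1 gene left out), with blue and red circles for genes past both thresholds, grey circles for an FDR under 0.05 with less than 2-fold change, and crosses for genes that did not pass. Il1rn lies at -3.37, further from 0 than any other gene shown.

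Among other caspases, gasdermins and regulators of pores and cell death, 17 of 21 genes were tested, with 4 higher and 10 lower at an FDR under 0.05 from limma. Past both thresholds 2 were lower and none was higher, and the median log2 fold change was -0.26. Over all genes tested, 40.2% were higher and 32.3% lower at that FDR, and 8.71% higher and 8.44% lower past both thresholds. Ripk3, the kinase that triggers necroptosis, was at 159 ± 2.60 TPM (SD, n = 4) in LPS cells and 64.2 ± 4.19 TPM in LPS + UDCA cells (log2 change -1.30, limma adjusted p = 4.0e-08).

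Downstream of the IL-1 receptor, 19 of 20 signaling genes were tested, with 10 higher and 7 lower at an FDR under 0.05 from limma and a median log2 change of 0.25. Over all genes tested, 40.2% were higher and 32.3% lower at that FDR, and 8.71% higher and 8.44% lower past both thresholds. The 3 genes of the list past both thresholds were all higher, namely Ikbkg, Traf6 and Tab2. Traf6, the ubiquitin ligase that relays signals from this receptor, rose from 4.25 ± 0.458 to 11.4 ± 0.730 TPM (log2 change 1.24, limma adjusted p = 1.4e-06). Tab2, an adaptor of the kinase TAK1, rose from 12.6 ± 0.856 to 28.5 ± 1.93 TPM (log2 change 1.12, limma adjusted p = 7.4e-07). Ikbkg, which encodes the NEMO subunit of the IκB kinase, rose from 27.7 ± 0.775 to 98.8 ± 4.83 TPM (log2 change 1.80, limma adjusted p = 3.7e-09). Ikbkg overlaps 19712 bases of the oppositely oriented gene G6pdx, which was at 91.4 to 181 TPM, and 5.81% of its 31-base words also occur in another gene, so reads of these genes could be split.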

How the data were processed

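The authors deposited 1 table of TPM per gene, with 8 library columns and 2 decimals, whose header does not name the unit. TPM was read from the values, which are not whole and sum to 958918 to 977485 in each library. TruSeq RNA libraries were sequenced on an Illumina HiSeq and analysed on a commercial cloud platform. The submitters' processing notes name Bowtie 0.12.2 and the builds mm10 and GRCm38, and the counting program is not given in the sources used here. The methods name UDCA cultures both with and without LPS, and the groups here follow the labels (LPS, LPS + UDCA). Among 28 library pairs, 0 were identical.

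Genes whose mean reached 1 TPM were modelled as log2(TPM + 1) in limma (version 3.58.1, R 4.3.3), with empirical Bayes variances that follow the mean level, after a test on simulated data. In that test, 77.0% of 200 genes with a planted change were called, and 1 of 11596 unchanged genes. Some planted changes equalled the fold minimum, and none was placed on genes as low as Il1a and Il1rap, which the test thus does not cover. The genes and lists were chosen with earlier results of these data known. Named were the 10 genes, tested IL-1 family genes and listed genes past both thresholds, and others were chosen after their values were seen. Some listed genes are counted but not reported here by name. Alternatives covered scaling, low-value filters, pseudocounts, the variance trend, the replicate number as a block and leaving out each library. Positions are from GENCODE M21 (GRCm38), promoters from RefSeq (GRCm38.p6). Shared reads were gauged by words of 31 bases. Python 3.11.15, pandas 2.3.3 and matplotlib 3.10.9 made tables and figures.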

Additional observations from a re-analysis of the deposited data

Results flagged for a closer look

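Dixon's test at the 95% level asks whether the highest or lowest of 4 libraries lies far from the next one, as a share of the whole range. Of 34 groups of TPM values and ratios, 3 passed, where chance gives 1.7. For Casp4, LPS + UDCA replicate 4 was highest at 87.4 TPM (0.848 of the range). For Gsdmd, LPS replicate 4 was highest at 48.35 TPM (0.908 of the range), in a group that ran from 46.5 TPM. For the ratio of Gsdmd to Casp1, LPS + UDCA replicate 4 was lowest at 0.384 (0.860 of the range).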

How the results depend on the processing

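Il1a, Il1b, Il18, Il1rn, Il1rap, Casp1, Casp4 and Gsdmd kept their direction and an FDR under 0.05 from limma in every alternative that tested them (16 for each, and 15 for Il1a and Il1rap, which at least 1 TPM in every library left out). Nlrp3 passed in 2 of its 16 alternatives, and by the exact permutation test its difference of -3.26 TPM (p = 0.23) became -7.65 TPM (p = 0.029) with median-of-ratios scaling. That scaling gave 807 higher and 1168 lower genes in place of 1028 and 995. On the log2 scale, the shift with UDCA of the ratio of Il1a to Il1rn was 1.98, and 2.59 with 1 TPM added to both, and that of Il1a to Il1b was -0.81 and -0.21. Deviations from the group means correlated by -0.035 to 0.15 in the 4 same-numbered pairs of libraries, over 0.1 in 3 of them and in 1 of the 12 other pairs, and 5 of 8 libraries correlated best with their own number. This is a hint of pairing, but not every pair passed 0.1 and the labels name no shared source, so the libraries were not treated as paired. With the replicate number as a block, 1034 genes were higher and 1000 lower, with 2 and 2 of the 10 genes, and none of their calls changed. TPM keeps no depth, so values under 1 TPM, such as those of Pycard and Il1r1, come without a counting interval.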

Other observations

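Of the listed pathway genes outside the 10, 27 had a mean under 1 TPM over the 8 libraries, and 8 of these were listed at 0 throughout. The other 19 entered the fit of all genes above 0 TPM, where 2 were higher and 6 lower with UDCA at an FDR under 0.05 from limma. Of all 11933 genes under 1 TPM in that fit, 9.39% were higher and 4.01% lower. The genes described here were chosen after their values were seen. The 2 that were higher were Il1r1 and Gbp5, a guanylate-binding protein, which was at 0.19, 0.28, 0.12 and 0.21 TPM in the LPS libraries, and 0.73, 0.83, 0.53 and 0.94 TPM once UDCA was added (log2 change 0.55, limma adjusted p = 9.0e-04). Among the 6 that were lower, Nlrc4, the sensor that acts with NAIP proteins on bacterial flagellin and secretion needles, was at 1.55, 1.49, 1.64 and 1.68 TPM in the LPS libraries, and 0.09, 0.10, 0.08 and 0.08 TPM once UDCA was added (log2 change -1.25, limma adjusted p = 1.3e-06). The NAIP genes did not move together. Naip2 was tested and rose, from 9.44 ± 0.766 to 16.7 ± 1.37 TPM (SD, n = 4, limma adjusted p = 2.2e-05). Naip5 was tested and was not called, with means of 2.07 and 2.05 TPM (limma adjusted p = 0.90). Naip1 (0.80 to 0.305 TPM) and Naip6 (0.625 to 0.33 TPM) were also among the 6 that were lower (limma adjusted p = 0.0078 and 0.028). Il33, an alarmin cytokine of the IL-1 family, was at 1.18 to 1.91 TPM with LPS and at 0.07 to 0.22 TPM with LPS + UDCA (log2 change -1.17, limma adjusted p = 5.4e-05). Il1f6, which encodes IL-36α and lies on chromosome 2 from 24215418 to 24225702, in the same cluster as Il1rn, was at 1.39, 2.0, 1.36 and 1.23 TPM in the LPS libraries, and 0, 0.21, 0.71 and 0.1 TPM once UDCA was added (log2 change -1.01, limma adjusted p = 0.0021).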
